A study of Mus musculus with 18 samples.

Results

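Sox11, Twist2, Arid1a, Mink1 and Ftsj1 are mouse genes that encode regulators of transcription, chromatin, kinase signalling and RNA modification. They were chosen by measured intensities of these samples, which were higher in the lacrimal gland and lower in the submandibular gland of testosterone-treated mice than in placebo-treated mice, so those changes are given here as a description, without a test. They are 5 of 8841 genes that the array annotation names, with 6 of 10500 probes, 2 of them for Sox11 and 1 for each of the others. After a filter on dim probes 7463 probes were tested, among them 5 of the 6. The second Sox11 probe was left out as dim.

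The mice were orchiectomised male BALB/c mice, which lack testicular androgen, and every group carried a testosterone or a placebo pellet for 21 days. The groups were lacrimal, meibomian and submandibular glands of mice with testosterone pellets, and the same 3 glands of mice with placebo pellets. Each of the 6 groups had 3 samples, pools A, B and C, described as pools of 10 glands from 5 animals each, while another line of the labels gives 4 animals for each sex and experiment. RNA of each pool was measured on a 1-colour array, 18 in all, and values are scaled intensities with an array median between 0.929 and 0.952. In RNA of whole glands, fewer cells of a type and less RNA per cell cannot be told apart.

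Sox11 is a SoxC transcription factor of neural and mesenchymal progenitors. Twist2 is a basic helix-loop-helix factor of mesenchyme that pairs with E proteins on E-box motifs. Arid1a is a DNA-binding subunit of the BAF (SWI/SNF) complex, which slides and evicts nucleosomes. Mink1 is a Ste20-family kinase that responds to Rap2 and acts upstream of JNK signalling, and Ftsj1 is an X-linked enzyme that methylates the anticodon loop of tRNA. Androgens act through the androgen receptor, a nuclear receptor that binds DNA as a dimer. They are known to drive sex differences in lacrimal secretion, in the granular ducts of the submandibular gland and in sebaceous glands such as the meibomian gland.

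In the RefSeq annotation of GRCm38.p6, Sox11 lies at chr12:27334268-27342718, Twist2 at chr1:91801461-91848034, Arid1a at chr4:133679008-133756769, Mink1 at chr11:70561580-70614482 and Ftsj1 at chrX:8238668-8252406. The files give no probe sequence, so the part of each gene that its probe reads is not known here. Because the 5 genes moved together with testosterone, the 250 bases upstream of an annotated transcript start are shown for each, 5′ to 3′ on the gene's strand. Capitals mark matches on either strand to the androgen receptor half-site AGAACA, the SOX motif AACAAT and the E-box CANNTG.
Sox11: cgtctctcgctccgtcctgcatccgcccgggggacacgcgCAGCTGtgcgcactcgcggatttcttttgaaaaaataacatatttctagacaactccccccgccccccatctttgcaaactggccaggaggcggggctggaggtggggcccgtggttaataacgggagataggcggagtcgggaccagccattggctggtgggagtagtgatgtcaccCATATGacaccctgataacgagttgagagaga
Twist2: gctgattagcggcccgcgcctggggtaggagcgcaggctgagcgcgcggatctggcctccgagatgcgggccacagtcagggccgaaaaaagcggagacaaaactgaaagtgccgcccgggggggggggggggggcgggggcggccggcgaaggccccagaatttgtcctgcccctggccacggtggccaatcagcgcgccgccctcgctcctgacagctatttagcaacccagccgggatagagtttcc
Arid1a: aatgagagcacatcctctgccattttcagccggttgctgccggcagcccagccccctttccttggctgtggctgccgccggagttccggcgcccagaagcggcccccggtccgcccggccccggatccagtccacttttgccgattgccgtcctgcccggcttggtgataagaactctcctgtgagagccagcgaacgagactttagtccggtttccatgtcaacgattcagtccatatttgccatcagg
Mink1: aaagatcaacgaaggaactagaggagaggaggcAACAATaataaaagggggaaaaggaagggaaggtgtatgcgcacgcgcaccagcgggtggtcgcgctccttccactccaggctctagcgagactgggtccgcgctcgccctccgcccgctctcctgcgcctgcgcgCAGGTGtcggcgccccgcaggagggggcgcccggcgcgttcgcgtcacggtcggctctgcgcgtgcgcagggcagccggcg
Ftsj1: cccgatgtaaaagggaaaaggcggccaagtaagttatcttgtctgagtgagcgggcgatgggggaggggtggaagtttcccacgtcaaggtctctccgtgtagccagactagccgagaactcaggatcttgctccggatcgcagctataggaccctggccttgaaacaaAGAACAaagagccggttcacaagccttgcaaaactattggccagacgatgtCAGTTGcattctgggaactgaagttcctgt

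These stretches lie at chr12:27342719-27342968 on the minus strand for Sox11, chr1:91801211-91801460 on the plus strand for Twist2 and chr4:133756770-133757019 on the minus strand for Arid1a. The Mink1 stretch is chr11:70562631-70562880 on the plus strand, upstream of a transcript start inside the annotated gene, and that of Ftsj1 is chrX:8252407-8252656 on the minus strand. Only Ftsj1 held the androgen receptor half-site, 1 match, which 16.1% of 32851 windows of that length hold. Only Mink1 held the SOX motif, 1 match, against 9.42% of all windows. E-boxes occurred in Sox11 (2 matches), Mink1 (1) and Ftsj1 (1), and 66.2% of all windows hold one. The marked matches do not overlap each other, and the E-box reads the same form on both strands. The full androgen response element, that half-site and its inverted copy with 3 bases between, was in none of the 5 and in 0.00913% of all windows. The GC content was 58% for Sox11, 68.8% for Twist2, 61.2% for Arid1a, 68% for Mink1 and 52.4% for Ftsj1, against a median of 52.4%. Each held 11 to 32 CpG dinucleotides, against a median of 6. RefSeq lists a second Arid1a start inside the gene, whose 250 upstream bases (chr4:133753986-133754235) have 81.6% GC, 33 CpG and none of these motifs. These matches describe the letters of the windows and not sites in use.

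Each gland's label was checked against genes known for that gland. With placebo all 5 measured secretory genes of the lacrimal gland, such as the antimicrobial protein gene Ltf, were highest there, and 4 of 5 with testosterone, when Car6 averaged 494 in the submandibular and 277 in the lacrimal gland. With either pellet 8 of 9 sebocyte probes were highest in the meibomian gland and all 3 submandibular duct and acinar genes, such as the growth factor gene Egf, in the submandibular gland. The meibomian samples were also highest for all 9 skeletal muscle genes and for 9 of 11 fibroblast genes with testosterone and 10 of 11 with placebo, markers of tissues that lie beside the gland in the eyelid. Meibomian arrays differed in range from the others, with maxima of 134.6 to 219.1 against 597.5 to 1042 for lacrimal and 636.3 to 742.6 for submandibular arrays. Whether this comes from the tissue or from the arrays was not tested, so levels of a gene in the meibomian gland are set beside those of the other glands as a description.

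All 5 genes were many times brighter with testosterone than with placebo in the lacrimal gland. The increase was 30.3-fold for Arid1a, 23.9-fold for Sox11, 16.6-fold for Mink1, 14.0-fold for Ftsj1 and 11.4-fold for Twist2, as ratios of mean intensity. The same genes were 1.42 to 2.87 times lower with testosterone in the submandibular gland. In the meibomian gland none of the 5 passed the test. In limma 13.3% of tested probes were called higher in the lacrimal gland, 5.25% were called lower in the submandibular gland and 0.858% were both, at an adjusted p of 0.05. Probes without overlap of the pools made up 18.1% (lacrimal, higher) and 12.3% (submandibular, lower). The genes were chosen for these changes, so nothing is read from their count.

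**Figure D1:**
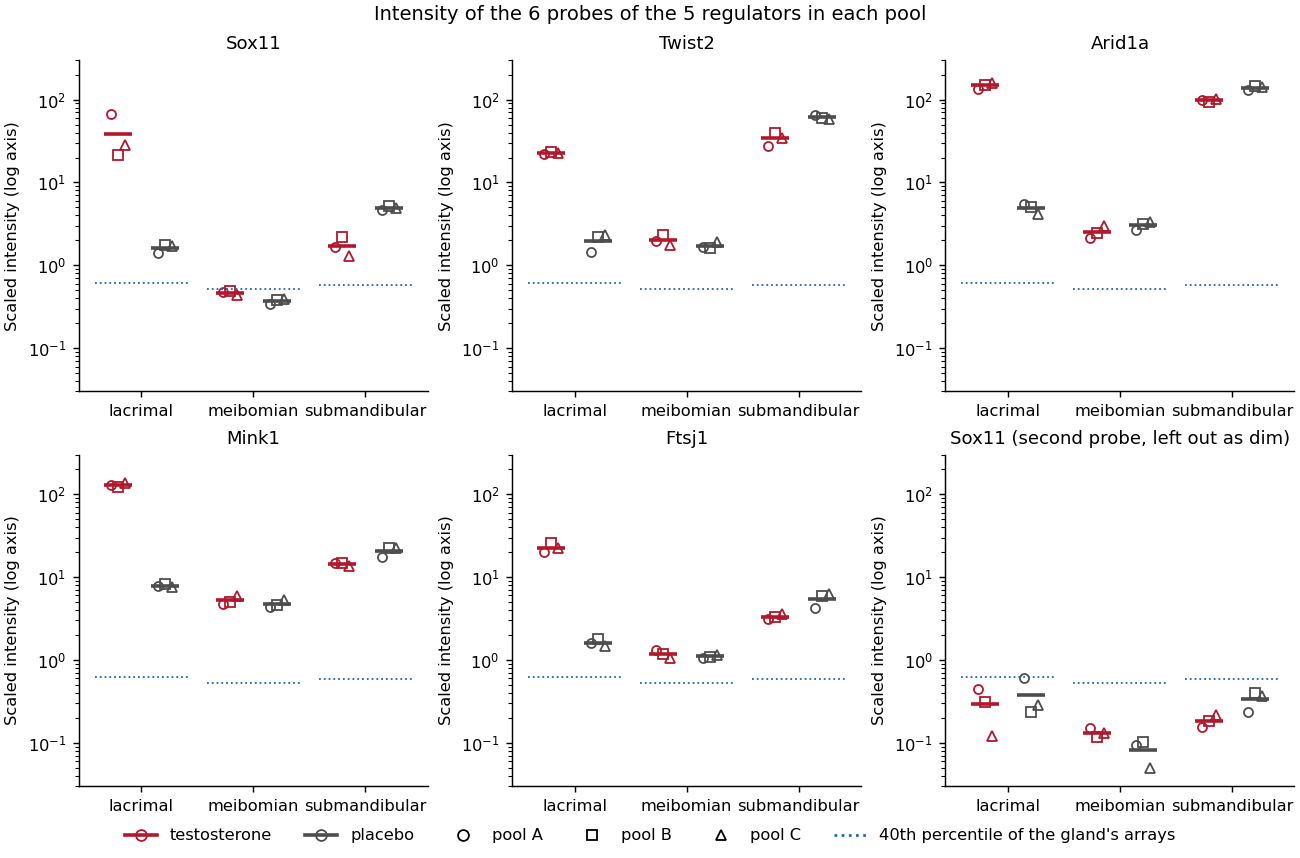
Scaled intensity (log axis) of the 6 probes in each pool, by gland, with testosterone in red and placebo in grey; symbols are pools A, B and C, thick lines group means, and dotted lines the 40th percentile of the gland's arrays. In 5 panels the lacrimal testosterone pools lie far above the lacrimal placebo pools and the submandibular testosterone pools below the submandibular placebo pools, while the second Sox11 probe stays between 0.0499 and 0.606.

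Of the transcription factors, Sox11 had the widest spread between pools. Its brighter probe measured 66.4, 21.6 and 27.9 in testosterone-treated lacrimal glands (pools A, B and C), against 1.42, 1.73 and 1.69 in placebo-treated lacrimal glands. Pool A was 3.07 times pool B with testosterone, but no pool overlapped the placebo pools. The lacrimal change was 4.27 ± 0.28 (SE, n = 3 each) on the log2 scale, and 3.79 without testosterone pool A. Submandibular Sox11 measured 1.67, 2.21 and 1.28 with testosterone, against 4.68, 5.13 and 4.97 with placebo. That fall, by 1.46 ± 0.28 on the log2 scale, was the largest submandibular change of the 5, and ranked 30th of the 392 probes called lower there.

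The second Sox11 probe did not show the lacrimal rise. It measured 0.441, 0.315 and 0.121 in testosterone-treated lacrimal glands, against 0.606, 0.236 and 0.283 in placebo-treated ones, and the pools overlapped. It lay at the 1.86th to 38.0th percentile of the lacrimal arrays, below the 40th percentile that the filter required on 3 arrays. Its submandibular values were 0.157, 0.182 and 0.217 with testosterone, against 0.234, 0.402 and 0.363 with placebo, lower without overlap as on the first probe. The lacrimal rise of Sox11 therefore rests on 1 probe, and the disagreement of the probes was not examined further.

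Twist2 was tight between pools in the lacrimal gland with testosterone, at 22.3, 23.1 and 22.6, against 1.46, 2.20 and 2.30 with placebo. The change was 3.42 ± 0.16 on the log2 scale. Twist2 was bright throughout in the submandibular gland and measured 27.7, 39.8 and 34.8 with testosterone, against 65.8, 59.6 and 58.0 with placebo, a change of -0.85 ± 0.16. Twist2 was the only one of the 5 that stayed lower in the lacrimal than in the submandibular gland with testosterone, with submandibular pools 1.51 times higher on average.

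Arid1a had the largest lacrimal change, 4.88 ± 0.13 on the log2 scale. It measured 135, 149 and 161 in testosterone-treated lacrimal glands, above the 98.5th percentile of each array, against 5.53, 5.03 and 4.13 in placebo-treated ones. Its submandibular change was the smallest of the 5, at -0.50 ± 0.13, with 98.6, 94.7 and 102 with testosterone, against 129, 147 and 142 with placebo. The submandibular pools did not overlap.

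Mink1 measured 128, 122 and 138 in testosterone-treated lacrimal glands, against 7.70, 8.17 and 7.52 in placebo-treated ones, a change of 4.02 ± 0.12. Submandibular Mink1 measured 14.8, 14.9 and 13.5 with testosterone, against 17.6, 22.2 and 22.7 with placebo. The change there was -0.52 ± 0.12, and placebo pool A lay nearer to the testosterone pools than to the other placebo pools.

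Ftsj1, the tRNA methyltransferase, measured 19.8, 25.6 and 22.6 in testosterone-treated lacrimal glands, against 1.61, 1.80 and 1.46 in placebo-treated ones, a change of 3.66 ± 0.14. Submandibular Ftsj1 measured 3.10, 3.29 and 3.63 with testosterone, against 4.27, 5.97 and 6.24 with placebo, a change of -0.68 ± 0.14. Here too placebo pool A was the lowest of the placebo pools, without reaching the testosterone pools.

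**Figure D2:**
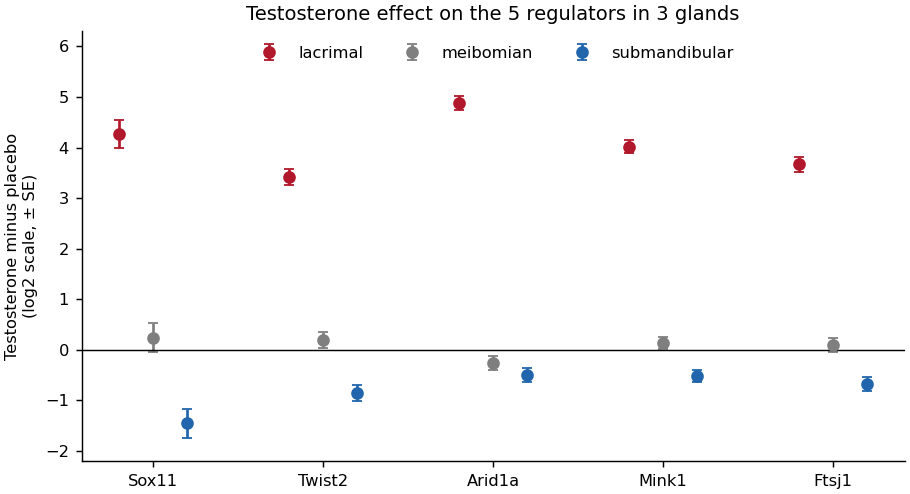
Testosterone minus placebo on the log2(intensity + offset) scale for the 5 genes (x axis) in the lacrimal (red), meibomian (grey) and submandibular gland (blue); bars are standard errors of the joint fit of 18 arrays. Lacrimal points lie between 3.42 and 4.88, submandibular points between -1.46 and -0.50, and meibomian points between -0.27 and 0.24.

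The meibomian gland was not used to choose the genes, and there the effect could be tested. Sox11 measured 0.473, 0.494 and 0.440 with testosterone, against 0.337, 0.380 and 0.393 with placebo. The testosterone pools were all higher, as for 23.7% of tested probes in this gland, but lay below the 40th percentile of their arrays. The change was 0.24 (95% interval -0.36 to 0.84, adjusted p = 0.763 in limma). The joint fit takes the spread of a probe from all glands, so Sox11 had the same SE, 0.28, in each. Its brightest pool was 1.12 (testosterone) and 1.17 (placebo) times the dimmest here, but 3.07 times in lacrimal testosterone. The interval and p-value of Sox11 therefore do not measure the meibomian spread alone. With the meibomian arrays fitted alone its adjusted p was 0.134 in limma. Twist2 measured 1.95, 2.29 and 1.78 with testosterone, against 1.67, 1.60 and 1.89 with placebo, a change of 0.20 (-0.13 to 0.54, adjusted p = 0.604).

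Arid1a measured 2.14, 2.49 and 2.96 in testosterone-treated meibomian glands, against 2.66, 3.17 and 3.36 in placebo-treated ones, and was the only one of the 5 below placebo there (-0.27, interval -0.55 to 0.02, adjusted p = 0.387). Mink1 measured 4.74, 5.07 and 5.98 with testosterone, against 4.39, 4.65 and 5.32 with placebo, a change of 0.13 (-0.12 to 0.39, adjusted p = 0.671). Ftsj1 measured 1.33, 1.19 and 1.07 with testosterone, against 1.07, 1.10 and 1.15 with placebo, a change of 0.09 (-0.21 to 0.40, adjusted p = 0.833). Apart from Sox11 the groups overlapped. The widest interval of the joint fit, that of Sox11, reached 0.84 on the log2 scale, with a spread taken from all glands.

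The background in this gland was low, with 0.59% of probes called (44), and depended on the fit. Limma called 0 of the 5 genes, also at an unadjusted p of 0.05 (the lowest, for Arid1a, was 0.0648). With the meibomian arrays fitted alone the adjusted p-values ran from 0.134 (Sox11) to 0.528 (Ftsj1). With arrays weighted by quality 26.7% of all probes were called, among them Twist2 (0.30, adjusted p = 0.0342) and Arid1a (-0.28, adjusted p = 0.0364). Single arrays also moved the count of 44: leaving out placebo pool A, B or C gave 0, 2 or 4 calls, leaving out testosterone pool A, B or C gave 3, 0 or 170, and leaving out pool A of the submandibular placebo group gave 85. Where limma called 0, the numbers of probes at an unadjusted p under 0.05 were 664 and 715.

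Across the 6 groups the meibomian means were the lowest, with the narrower range of those arrays given above, except for Twist2. Its mean was 2.01 in meibomian testosterone and 1.99 in lacrimal placebo. Lowest did not always mean dim within an array. Meibomian Mink1 lay between the 77.0th and 81.7th percentile, but meibomian Sox11 lay between the 32.7th and 39.0th. Sox11 ran from lacrimal testosterone (38.6 ± 24.2, SD) over submandibular placebo (4.93 ± 0.228) to submandibular testosterone (1.72 ± 0.463) and lacrimal placebo (1.62 ± 0.168), which overlapped each other, and was lowest in the meibomian gland. Twist2 was highest in submandibular glands, at 34.1 ± 6.12 with testosterone and 61.2 ± 4.09 with placebo, followed by lacrimal testosterone (22.6 ± 0.413). Its meibomian pools and the lacrimal placebo pools overlapped. Arid1a did not separate lacrimal testosterone (148 ± 12.8) from submandibular placebo (139 ± 9.48), whose pools overlapped. Mink1 and Ftsj1 had the same order: lacrimal testosterone, submandibular placebo, submandibular testosterone, lacrimal placebo and then both meibomian groups, which overlapped.

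With testosterone, the lacrimal gland exceeded the submandibular gland 22.5-fold for Sox11, 8.98-fold for Mink1, 6.80-fold for Ftsj1 and 1.51-fold for Arid1a, while Twist2 was lower. With placebo the submandibular gland was the higher one for all 5 genes. It exceeded the lacrimal gland 30.8-fold for Twist2, 28.5-fold for Arid1a, 3.38-fold for Ftsj1, 3.05-fold for Sox11 and 2.67-fold for Mink1, without overlap of pools. Of all tested probes 3209 of 7463 had a lower mean in the lacrimal than in the submandibular gland with placebo.

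Set against all probes called in the lacrimal gland, the 5 genes were among the larger rises. They were chosen for their changes in these glands, so their ranks are a description. Of the 991 probes called higher, Arid1a ranked 13th, Sox11 22nd, Mink1 26th, Ftsj1 36th and Twist2 50th. In the submandibular gland their falls were of middling or small rank among 392, with Twist2 131st, Ftsj1 217th, Mink1 318th and Arid1a 337th after Sox11 at 30th. Down to the rank of Twist2, the other 45 probes held 0 called lower in the submandibular gland, 10 called higher and 35 not called. Below that rank 59 of 941 lacrimal rises were called lower and 132 higher. The 5 genes were chosen for submandibular falls, so nothing is read from the 0, which also depends on the threshold. Ptch1 and Rsph6a, with lacrimal changes of 5.67 and 6.80, changed by -0.48 and -0.49 in the submandibular gland without being called lower. Arid1a changed by -0.50 there. Probes called higher in both glands made up 1.9% of those tested, and probes called lower in both 1.38%.

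In all, 64 probes were called higher in the lacrimal and lower in the submandibular gland, and the 5 genes held the 5 largest lacrimal rises among them. The 5 genes were chosen for these changes, so their place here and their calls under each fit are a description. The 59 others had a median lacrimal change of 0.74 (0.30 to 2.94), a median submandibular change of -0.62 and a median meibomian change of 0.22, against medians of -0.07, 0.01 and 0.06 over all tested probes. Just below the 5 came Pxt1, at 2.94, and an unnamed probe at 2.85. In placebo-treated mice 39 of the 59 had a lower mean in the lacrimal than in the submandibular gland. With each gland fitted alone 17 probes (0.228%) had this pattern, among them Arid1a, Sox11 and Twist2 but not Mink1 and Ftsj1. Arid1a left it with quantile normalization over all arrays, and without submandibular placebo pool B or C or submandibular testosterone pool A or B.

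**Figure D3:**
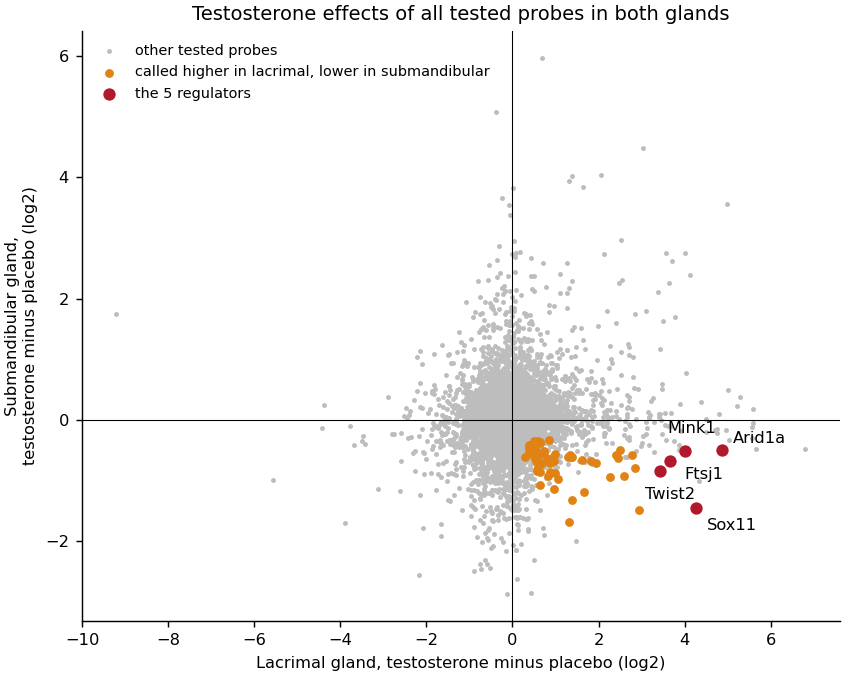
Testosterone minus placebo (log2) in the lacrimal (x axis) and the submandibular gland (y axis) for 7463 tested probes, with the 5 regulators in red, the other 59 probes called higher in lacrimal and lower in submandibular glands in orange, and the rest in grey. The 5 regulators lie to the right of the orange probes, the next of which is at 2.94.

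Of the other named genes called in both of these directions, the 8 whose smaller change of the 2 glands was largest are given. Pxt1, a peroxisomal gene of testis, measured 18.2 ± 13.3 in testosterone-treated lacrimal glands and 1.86 ± 0.113 in placebo-treated ones (2.94 ± 0.31 on the log2 scale), and changed by -1.49 ± 0.31 in the submandibular gland. Scd1, the desaturase that makes monounsaturated fatty acids, measured 8.44 ± 1.66 with testosterone and 3.15 ± 0.601 with placebo in the lacrimal gland, and 8.38 ± 3.77 with testosterone and 20.2 ± 2.95 with placebo in the submandibular gland. The chemokine receptor gene Ccr1 changed by 2.60 and -0.92, the adhesion molecule gene Ncam2 by 1.31 and -1.69, and the kinetochore gene Dsn1 by 0.98 and -0.88. Csprs, Cep295nl and the guanylate cyclase gene Gucy2c changed by 1.67, 1.06 and 0.96 in the lacrimal gland and by -1.19, -0.98 and -1.15 in the submandibular gland. Csprs belongs to a multi-copy family, so its probe may read several copies.

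The reverse pattern, lower in the lacrimal and higher in the submandibular gland, was more frequent, with 108 probes (1.45%). Its leading named genes were the acute phase protein gene Hp (-1.63 and 1.24), the matrix gene Mgp (-1.19 and 1.28), the matrix gene Postn (-1.14 and 1.24) and the smooth muscle gene Cnn1 (-1.14 and 1.13). The summed level of 5 smooth muscle and myoepithelial genes was 10.8 to 12.7 with testosterone and 23.3 to 27.0 with placebo in the lacrimal gland, and 137.5 to 157.5 with testosterone and 61.3 to 73.2 with placebo in the submandibular gland. Of these genes 4 were called lower in the lacrimal gland (14.8% of all probes were) and 4 higher in the submandibular gland (8.54% of all probes were). Acta2, the defining smooth muscle actin, measured 2.34 with testosterone and 5.23 with placebo in the lacrimal gland. The summed level of 11 fibroblast genes in the submandibular gland was 99.2 to 106.0 with testosterone and 63.7 to 71.7 with placebo, with 6 called higher. In the lacrimal gland their sums overlapped, at 35.9 to 44.6 with testosterone and 43.1 to 53.3 with placebo, with 2 called lower and 1, Sparc, higher. The part of these tissues in the changes of the 5 genes was not tested.

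The 5 genes shared the step between testosterone and placebo, but not the order of pools within a group. Among lacrimal testosterone pools, pool A was the highest for Sox11 (66.4) and the lowest for Twist2 (22.3), Arid1a (135) and Ftsj1 (19.8). After centring each gland on its mean, correlations between pairs of them over 18 arrays ran from 0.932 (Sox11 and Arid1a) to 0.993 (Arid1a and Mink1). All points share the lacrimal change for which the genes were chosen, so these are descriptions. By the same measure among 6434 named probes, the 3 genes most like each of the 5 were nearly all large lacrimal rises. Sox11 was most like Pxt1 (0.979), the glutamine transporter gene Slc38a1 (0.963) and the cytokine gene Il3 (0.961). Twist2 was most like the zinc finger gene Zfp92 (0.979), the Cdc42 activator gene Dnmbp (0.977) and Il3 (0.975).

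Arid1a and Ftsj1 were most like Ormdl3, a regulator of sphingolipid synthesis (0.991 and 0.986), and the mitochondrial gene Mtfr1l (0.988 and 0.985). Mink1 was most like the hedgehog receptor gene Ptch1 (0.994), Mtfr1l (0.992) and the cilia gene Rsph6a (0.991). The third place was held by the thrombin receptor gene F2rl3 for Arid1a (0.987) and the cytochrome gene Cyp3a13 for Ftsj1 (0.982). These genes changed by 1.36 (Slc38a1) to 6.80 (Rsph6a) in the lacrimal gland and by -0.16 (F2rl3) to -1.49 (Pxt1) in the submandibular gland. Il3 measured 54.7 with testosterone and 3.64 with placebo in the lacrimal gland, and 120.6 with testosterone and 170.5 with placebo in the submandibular gland.

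Genes that work with the 5 were examined as 12 lists with 196 tested probes. Limma called 0 of these higher in the lacrimal and lower in the submandibular gland, and 2 had those directions with an unadjusted p under 0.05 in both. Of all tested probes 0.858% were called in those directions, so a count of 0 is near the background. In the lacrimal gland 62 of the 196 were called (31.6%, against 28.1% of all probes), in the meibomian gland 1 (0.510%, against 0.59%) and in the submandibular gland 27 (13.8%, against 13.8%), all near the background. The lacrimal share mixes unlike lists, since 21 of the 62 calls came from the 24 probes of DNA replication and mitosis. Over all tested probes 13.3% were called higher and 14.8% lower in the lacrimal gland, and 8.54% higher and 5.25% lower in the submandibular gland. List medians can be read against the medians over all tested probes, -0.07 (lacrimal), 0.06 (meibomian) and 0.01 (submandibular).

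Of 22 tested probes for partners of Arid1a in the BAF complex, 3 were called higher in the lacrimal gland (13.6%, against 13.3% of all probes) and 1 lower (4.55%, against 14.8%). In the meibomian gland 1 was higher, and in the submandibular gland 1 was higher (4.55%, against 8.54%). The medians were -0.12, -0.08 and -0.05. Dpf1, a neuronal BAF subunit, was the only list gene that passed in the meibomian gland. It measured 1.60 ± 0.0927 there with testosterone and 0.760 ± 0.0830 with placebo (0.93 ± 0.17, adjusted p = 0.0207), and 4.23 ± 0.976 with testosterone and 1.62 ± 0.182 with placebo in the lacrimal gland (1.28 ± 0.17, adjusted p = 1.76e-05). Ss18 rose by 0.54 in the lacrimal gland, with overlapping pools, and Bcl7b fell by 0.50. Actb, which is part of the complex and of the cytoskeleton, rose by 0.71 in the submandibular gland.

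Among 21 probes of other chromatin remodellers 2 were higher and 2 lower in the lacrimal gland (median -0.08) and 3 were higher in the submandibular gland (median 0.19). The histone-binding gene Rbbp7 measured 52.8 ± 4.36 with testosterone and 12.2 ± 1.82 with placebo in the lacrimal gland (2.10 ± 0.12, adjusted p = 1.11e-09) and rose in the submandibular gland too (0.61, adjusted p = 0.00332). Hdac1 rose by 0.46 in the lacrimal gland, where Chd1 and Smarca5 changed by -0.61 and -0.50, and Chd3 rose by 0.75 in the submandibular gland.

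Of 8 tested probes of other SOX family genes 1 was called in the lacrimal gland (median -0.26), the endothelial factor gene Sox18, which fell by 0.60 ± 0.21 (adjusted p = 0.0485). The median in the submandibular gland was -0.12. There Sox15 rose by 0.68 and Sox10, a factor of acinar, myoepithelial and glial cells, fell by 0.77 ± 0.20 (adjusted p = 0.0158). Of 3 tested genes known as Sox11 targets in neurons (medians 0.27, lacrimal, and -0.17, submandibular), the tubulin regulator gene Stmn1 rose in the lacrimal gland by 2.82 ± 0.17 (adjusted p = 1.27e-09), with 7.27 ± 2.32 with testosterone and 0.850 ± 0.0639 with placebo. Stmn1 also rose in the submandibular gland (0.52), where the intermediate filament gene Nes fell by 0.62. Stmn1 is also known as a gene of dividing cells.

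Factors related to Twist2, their E-protein partners and their Id inhibitors went both ways. Of 13 tested probes 3 were higher and 3 lower in the lacrimal gland (23.1% each, against 13.3% and 14.8% of all probes), and 5 were higher in the submandibular gland (38.5%, against 8.54%), with medians of 0.04 and 0.12. Mesp2, a mesoderm factor, rose in both glands, by 3.38 ± 0.12 (lacrimal) and 2.11 ± 0.12 (submandibular; adjusted p = 3.54e-12 and 5.33e-09). The E-protein gene Tcf4 measured 1.82 ± 0.229 with testosterone and 5.31 ± 0.861 with placebo in the lacrimal gland (-1.46 ± 0.13, adjusted p = 4.73e-07). The inhibitor gene Id1 fell by 0.52 in the lacrimal gland, where Mef2c rose by 0.49, and Id3 rose by 1.85 in the submandibular gland.

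Factors and targets of epithelial-mesenchymal transition, a process in which Twist proteins are known to act, had 4 of 16 probes higher in the lacrimal gland (25%, against 13.3% of all probes) and 2 lower (12.5%, against 14.8%). In the submandibular gland 5 were higher (31.3%, against 8.54%). The medians were -0.06 and 0.37. The epithelial cadherin gene Cdh1 rose by 1.03 and the growth factor gene Tgfb3 by 1.26 in the lacrimal gland. Prrx2 and Cldn7 fell there, by 0.56 and 0.53. Tgfb2 measured 9.22 ± 1.80 with testosterone and 1.65 ± 0.408 with placebo in the submandibular gland (2.37 ± 0.18, adjusted p = 1.31e-07), where Tgfb3 rose by 1.15.

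The other Ste20-family kinases, relatives of Mink1, had 1 of 10 probes called in any gland, Stk39, which rose by 0.66 ± 0.12 in the lacrimal gland (adjusted p = 0.000489). The medians of this list were -0.12 (lacrimal) and 0.06 (submandibular). In the JNK cascade and Rap2 signalling 2 of 24 probes were higher and 3 lower in the lacrimal gland, and 2 were higher and 1 lower in the submandibular gland, with medians of 0.14 and 0.29. The stress sensor genes Gadd45a and Gadd45g, which activate kinases upstream of JNK, rose in both glands. Gadd45a measured 4.70 ± 0.870 with testosterone and 1.85 ± 0.362 with placebo in the lacrimal gland, and 46.9 ± 5.88 with testosterone and 7.62 ± 0.120 with placebo in the submandibular gland. The adaptor gene Nck2, whose product binds Mink1-like kinases, fell by 1.85 ± 0.16 in the lacrimal gland (adjusted p = 1.40e-07), the scaffold gene Mapk8ip1 fell by 1.04 there and the JNK gene Mapk9 fell by 0.48 in the submandibular gland.

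Enzymes that modify tRNA and rRNA, the group of Ftsj1, were called in few cases: of 23 probes 1 was higher (Elp5, 0.52) and 1 lower (Emg1, -0.64) in the lacrimal gland. In the submandibular gland 2 were lower, Nop56 (-0.79, with overlapping pools) and the queuine enzyme gene Qtrt1 (-0.46 ± 0.13, adjusted p = 0.0241). The medians were -0.04 and -0.07.

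Coregulators of the androgen receptor had 2 of 19 probes higher (10.5%, against 13.3% of all probes) and 3 lower (15.8%, against 14.8%) in the lacrimal gland, near the background (median -0.18). Pias1 measured 5.22 ± 0.577 with testosterone and 1.88 ± 0.565 with placebo (1.43 ± 0.16, adjusted p = 4.75e-06), Kdm1a rose by 0.47, and Cited2 and Kat5 fell by 0.93 and 0.67. In the submandibular gland limma called 0 of the 19 (median 0.06), with 1 at an unadjusted p under 0.05, and the largest change was that of Foxa1 (-0.34, adjusted p = 0.0640). Of 13 probes of genes that androgens induce in other organs 3 were higher and 3 lower in the lacrimal gland, and 2 higher and 1 lower in the submandibular gland, with medians of -0.02 and 0.12. Fkbp5, a chaperone of steroid receptors, rose in both glands, to 20.8 ± 3.87 with testosterone, against 1.42 ± 0.173 with placebo, in the lacrimal gland, and to 6.12 ± 1.35, against 0.951 ± 0.545, in the submandibular gland. The kinase gene Sgk1 went the reverse way of the 5 genes, by -0.87 and 1.78, and the protease gene Tmprss2 fell by 0.79 in the submandibular gland.

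Genes of DNA replication and mitosis rose in the lacrimal gland. Of 24 probes 21 were called higher there (87.5%, against 13.3% of all probes), with a median change of 1.69. Mki67, the proliferation antigen, was named for the largest called rise of this list. It measured 7.32 ± 1.92 with testosterone and 0.400 ± 0.0210 with placebo in the lacrimal gland. Its effect exceeded that in the submandibular gland by 3.57 (adjusted p = 1.13e-07, interaction in limma), a p-value not free of that choice. The kinase gene Cdk1 rose by 3.43 ± 0.20. In the submandibular gland 1 of 24 was called, Kif20a, which fell by 0.64, and the median was -0.03. The part of dividing cells in the lacrimal rises of the 5 genes was not tested.

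**Figure D4:**
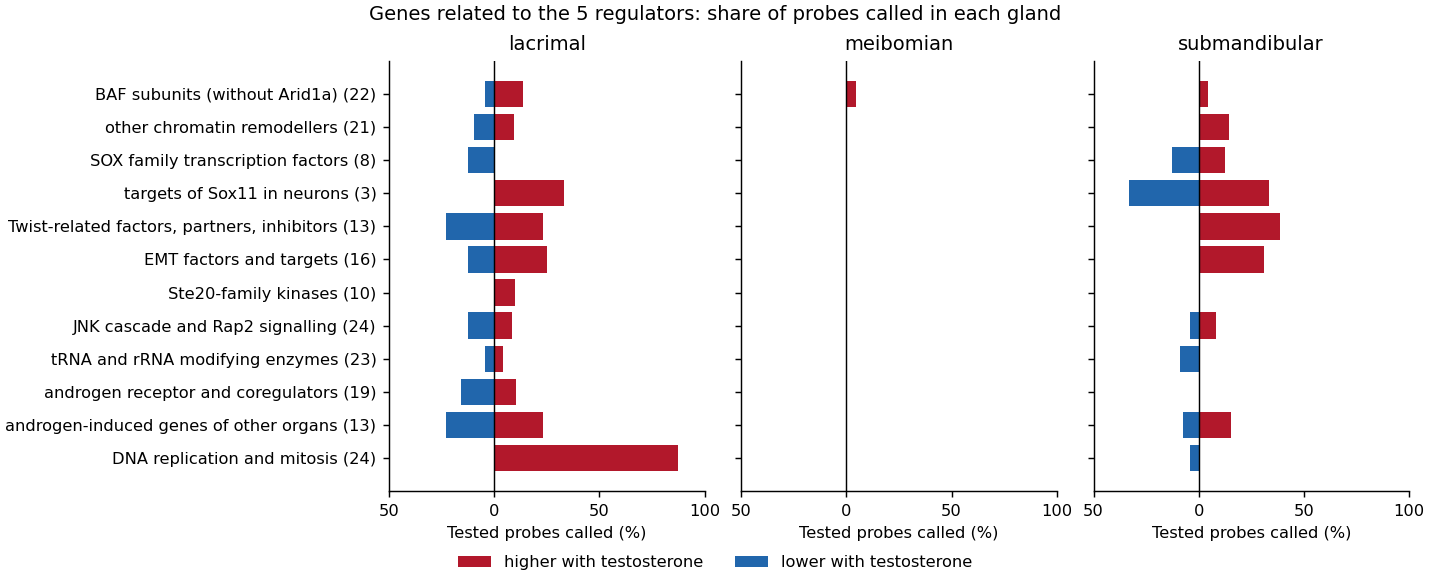
Share of tested probes of 12 gene lists (number of probes in brackets) called by limma as higher (red, right of 0) or lower (blue, left of 0) with testosterone in each gland. Replication and mitosis genes stand out in the lacrimal gland, with 21 of 24 higher, and Dpf1 is the 1 call in the meibomian gland.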

How the data were processed

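RNA of 18 gland pools was measured on 1-colour arrays. The authors deposited 1 table of probe intensity on a linear scale, already scaled to close array medians; the array, the scanner, the background correction and the scaling are not given in the sources used here, and this scaling was kept. The value -1 was taken to mark a missing value, and other values below 0 were set to 0. The log2 of the intensity plus 0.174 was taken, an offset at the 10th percentile of all values above 0, so fold changes of dim probes are understated on that scale.

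A probe was tested where every group had 2 or more values and at least 3 arrays had it above their 40th percentile. This left out 146 of 10500 probes for missing values and 2891 as dim. The platform annotation named 1 gene for 8983 probes, several for 1 and none for 1516, and 6575 of the 7463 tested probes named 1 gene. All 18 arrays were fitted with a mean per group in limma 3.58.1 (R 4.3.3, eBayes with a trend), with 12 residual degrees of freedom and Benjamini-Hochberg adjustment over all tested probes at a threshold of 0.05. "Called" means past that threshold. The fit was tested on simulated data. The simulation gave each probe the same spread in every group, so it could not show what an unequal spread between glands does. Pools of 1 group correlated with each other at 0.904 to 0.992 (Spearman), and the number of arrays limits the precision.

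The 5 genes and the gene lists were chosen with earlier results of these data known. Genes were named by a rule: every probe of the 5 genes, the 3 probes most like each by Pearson correlation over arrays centred within glands, the 8 leading named probes called in the same opposite directions and the 4 leading ones the other way round, up to 2 called genes per direction of each list and gland (or 1 where none was called), and leading markers of each gland. Rbbp7, Gadd45a and other genes called in both glands count under both. Pools A, B and C are separate pools per the labels, and the letters were not taken to pair samples. This was checked only between testosterone and placebo pools within a gland. Promoter sequences and gene positions are RefSeq's for GRCm38.p6, with all 5 genes matched by symbol. Alternatives were a fit per gland, an offset 4-fold larger or smaller, a stricter filter and none, quantile and median scaling, array weights, eBayes without trend, -1 counted as 0, the letter as a block and leaving out each array.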

Additional observations from a re-analysis of the deposited data

Results flagged for a closer look

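The effects of testosterone in the lacrimal and the submandibular gland differed for many genes named above; values are the lacrimal minus the submandibular effect on the log2 scale. For the 5 regulators all pools moved one way in one gland and the other way in the other, by 5.73 for Sox11, 5.38 for Arid1a, 4.54 for Mink1, 4.34 for Ftsj1 and 4.28 for Twist2. They were chosen for this, so the difference was not tested. The same holds for the genes chosen for opposite changes, where the difference was not tested: Pxt1 4.42, Ccr1 3.52, Ncam2 3.002, Csprs 2.86, Scd1 2.70, Gucy2c 2.10, Cep295nl 2.04 and Dsn1 1.86, and in the other direction Hp -2.87, Mgp -2.46, Postn -2.37 and Cnn1 -2.28. Of genes chosen for their likeness to the 5, again not tested, the pools of Rsph6a (7.29), Ptch1 (6.15), Il3 (4.37), Dnmbp (4.29), Zfp92 (3.40), Ormdl3 (3.04) and Slc38a1 (1.97) moved in opposite directions.

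For genes of the lists the difference itself was tested in limma, with adjusted p-values over all tested probes and 3 pools in each group. Most of these genes were named for the largest called changes of their list in 1 of the 2 glands. Their adjusted p-values are therefore not free of that choice. The test took pools of different glands as independent, which was not checked. The effect was higher in the lacrimal gland for Mki67 3.57 (adjusted p = 1.13e-07), Cdk1 3.33 (adjusted p = 2.08e-07), Rrm2 1.99 (adjusted p = 0.00287), Kif20a 0.81 (adjusted p = 0.0359), Stmn1 2.30 (adjusted p = 2.26e-06), Rbbp7 1.497 (adjusted p = 8.63e-06) and Dpf1 1.04 (adjusted p = 0.00381). It was also higher for Mesp2 1.26 (adjusted p = 4.22e-05), Pias1 1.22 (adjusted p = 0.00103), Nes 0.88 (adjusted p = 0.00256), Kdm1a 0.66 (adjusted p = 0.0341), Stk39 0.63 (adjusted p = 0.0132) and Qtrt1 0.52 (adjusted p = 0.0439).

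The effect was lower in the lacrimal gland for Sgk1 -2.65 (adjusted p = 2.16e-06), Tgfb2 -2.47 (adjusted p = 2.45e-06), Tcf4 -1.94 (adjusted p = 3.04e-06), Id3 -1.81 (adjusted p = 2.73e-06), Nck2 -1.42 (adjusted p = 0.000193), Gadd45a -1.32 (adjusted p = 0.000700) and Cldn7 -1.26 (adjusted p = 0.00158). It was also lower for Chd3 -0.9995 (adjusted p = 0.00560), Mapk8ip1 -0.90 (adjusted p = 0.00865), Actb -0.88 (adjusted p = 0.0249), Prrx2 -0.88 (adjusted p = 0.0117), Bcl7b -0.86 (adjusted p = 0.00188), Cited2 -0.82 (adjusted p = 0.0224) and Emg1 -0.74 (adjusted p = 0.0230).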

How the results depend on the processing

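With several alternatives the lacrimal and submandibular changes of the 5 genes were identical to those of the main fit, so nothing is read from them. These were a fit per gland, no filter, a stricter filter, eBayes without trend, -1 counted as 0 and the letter as a block. With these counted, the changes kept their direction in all 180 values from the alternatives run, and 172 of the values lay within 1 SD between pools. The exceptions were, with a 4-fold larger offset, lacrimal changes of 3.33 for Ftsj1, 3.14 for Twist2 and 3.93 for Mink1; with quantile normalization over all arrays, 3.50 for Ftsj1 and 3.89 for Mink1 in the lacrimal and -0.40 for Arid1a in the submandibular gland; and with quantile normalization within glands, 4.18 for Mink1 and 5.06 for Arid1a in the lacrimal gland. In the meibomian gland 88 of 90 values stayed on the same side of the threshold, and array weights called Twist2 (0.30, adjusted p = 0.0342) and Arid1a (-0.28, adjusted p = 0.0364); over all alternatives Twist2 lay between 0.11 and 0.30 and Arid1a between -0.38 and -0.16. Leaving out single pools moved the lacrimal change of Sox11 between 3.79 and 4.60. The cause was not tested.

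The count of 44 meibomian probes was 246 with each gland fitted alone, 77 with the larger offset, 28 with quantile normalization over all arrays and 1993 with array weights, and ran from 0 to 170 without single arrays. Its share of higher calls was 79.5%, but 64.3% with quantile normalization over all arrays and 68.6% with it within glands. Each gland fitted alone, with fewer arrays, gave 297 submandibular probes higher, 112 lower and 17 called in opposite directions. Submandibular probes called lower numbered 256 to 461 without single arrays, the fewest without placebo pool C.

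Same-letter testosterone and placebo pools within a gland did not deviate together (correlations of residuals -0.109 to 0.138 over 9 pairs). Same-letter pools of different glands were not compared, so whether they came from the same mice is not known here. With the letter within each gland as a replicate block limma called 0 meibomian probes, while 1020 had an unadjusted p under 0.05. It called 50 probes in opposite directions. The 5 genes were among these, but they were chosen for these directions, so this is a description. Brightness limits the second Sox11 probe and Sox11 in the meibomian gland, which lay below the 40th percentile of their arrays.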

Other observations

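Summed levels of other cell type markers give the setting of the 5 genes in the glands where they moved. In the lacrimal gland 9 leukocyte genes summed to 63.2 to 80.6 with testosterone and 54.8 to 59.5 with placebo. Of 7 tested probes 2 were called higher and 1 lower. The brightest gene, Cd79a, averaged 47.6 with testosterone and 33.3 with placebo there. Means of Itgax, Lyz2, Itgam and Cd3g were also higher with testosterone, but those of Cd74, Cd79b, Cd3e and Ptprc were lower. The sum therefore does not show a general rise of these genes. Adipocyte genes, 4 in all, summed to 7.13 to 10.8 with testosterone and 14.0 to 18.3 with placebo there, with 2 called lower. Endothelial genes (6) summed to 2.44 to 3.26 with testosterone and 3.21 to 4.32 with placebo, and neuronal and Schwann cell genes (5) to 3.91 to 4.02 with testosterone and 3.91 to 4.80 with placebo. In the submandibular gland leukocyte genes summed to 44.4 to 54.1 with testosterone and 45.5 to 64.6 with placebo, and 6 of 11 fibroblast genes were called higher. Neuronal and Schwann cell genes summed there to 2.98 to 3.25 with testosterone and 3.47 to 4.04 with placebo. Adipocyte genes summed to 64.2 to 69.3 with testosterone and 74.5 to 172.5 with placebo in the submandibular gland, where 2 of 4 were called lower. The part of these cells in the changes of the 5 genes was not tested. The counts of called markers can be read against all tested probes. Of those, 13.3% were called higher and 14.8% lower in the lacrimal gland, and 8.54% higher and 5.25% lower in the submandibular gland.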
